A study of Mus musculus with 3 samples.

Results

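The nuclei described here came from the elbow segment of E16.5 mouse forelimbs and were selected on accessibility at 5 loci that are active in developing joints, Gdf5, Prg4, Erg, Wnt9a and Creb5. Of 14048 nuclei in the E16.5 library, 11675 carried at least 10000 counts, and the highest-scoring 5%, 584 nuclei, are called the gated nuclei. The other 11091 nuclei that passed the depth minimum were the comparison, and the series as a whole held 42365 nuclei. For the score, the counts in peaks over each gene body and the 2 kb upstream were divided by that locus's mean over the nuclei, summed over the 5 loci and divided by the nucleus's total count. Values at these 5 loci are therefore a description of the choice, and what else the gated nuclei shared was read at loci that the score did not use. At those loci the gated nuclei did not carry a joint profile, so they are called by the gate and not by a cell type.

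Single-nucleus ATAC-seq, in which a transposase cuts open chromatin and the cut sites are counted in called peaks, had been run on mesenchymal progenitors (MPs) of the forelimb at E16.5 and at the earlier stages E14.5 and E12.5, with 1 library per stage and so no replicate. All 3 libraries came from Hic1CreERT2/CreERT2;Rosa26LSLtdTomato/tdTomato embryos labelled C57BL/6J, which carry a tamoxifen-dependent Cre at both Hic1 alleles, so that a red reporter marks cells that expressed Hic1 around the time of dosing and their descendants. Dams had received 7.5 mg tamoxifen in 300 uL sunflower oil by gavage at embryonic day 10. tdTomato-positive cells had been sorted after removal of cells with Ter119, F4/80, CD11b, CD31, CD117 or CD45 on their surface. These surface markers gated out blood and endothelial cells, and none of them removed epithelial cells, for which only the reporter selected. In its E16.5 single-cell RNA data the study treated small epithelial clusters as contamination and left them out. The E16.5 tissue was the distal stylopod and proximal zeugopod with the elbow between them, pooled over limbs, whereas the earlier libraries were made from forelimbs. The libraries held 413425059 counts at E16.5, 204289151 at E14.5 and 87048167 at E12.5, with medians of 26694, 8575 and 6003.5 per nucleus. The E16.5 library shared 401 barcodes with the E14.5 library and 151 with the E12.5 library, and 14 and 5 of these were gated nuclei. With 1 library per stage no test was possible, and every interval given below is a 95% interval for counting error only.

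A synovial joint forms where cells of a cartilage template stop making cartilage and condense into an interzone. Gdf5, a BMP-family ligand, is the classical interzone marker, and cells that have expressed it give rise to articular cartilage, ligament and synovial lining. Wnt9a is a Wnt ligand of the early interzone, Erg is an ETS transcription factor of the permanent cartilage at the joint surface, Creb5 is a bZIP transcription factor found in articular cartilage, and Prg4 encodes lubricin, the lubricant that superficial chondrocytes and synoviocytes secrete into the joint. Among these genes Prg4 is the late one, and it is also made outside joints.

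Of the gate loci, Prg4 separated the gated nuclei most, and its 2 peaks are shown for that reason. In GENCODE coordinates on mm10 the gene lies on the minus strand at chr1:150449412-150466165. A promoter peak at chr1:150465791-150466743 spans the transcription start and had a count in 59.9% of the gated nuclei and 5.10% of the others. A second peak at chr1:150460528-150461171 overlaps a coding exon 4994 bp from the start and had a count in 29.3% and 2.02%. Summed per 1000000 counts (CPM), the promoter peak stood at 55.8 against 3.0 CPM and the exonic peak at 27.9 against 1.15 CPM, so both peaks carried the selection. The 250 bases before the start (chr1:150466166-150466415, minus strand) and the 300 bases at the centre of the exonic peak (chr1:150460700-150460999, minus strand) read 5′ to 3′ in GRCm38.p6 as follows. Capitals mark matches on either strand to the letters searched, ETS GGAAGT and E-box CATCTG in the first and E-box CATCTG and SOX ACAANG in the second.
Prg4 upstream of the start: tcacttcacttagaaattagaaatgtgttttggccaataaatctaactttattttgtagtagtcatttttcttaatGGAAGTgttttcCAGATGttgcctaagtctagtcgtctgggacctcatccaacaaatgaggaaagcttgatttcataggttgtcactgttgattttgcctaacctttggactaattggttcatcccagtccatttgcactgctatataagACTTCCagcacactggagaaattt
Prg4 peak within the gene: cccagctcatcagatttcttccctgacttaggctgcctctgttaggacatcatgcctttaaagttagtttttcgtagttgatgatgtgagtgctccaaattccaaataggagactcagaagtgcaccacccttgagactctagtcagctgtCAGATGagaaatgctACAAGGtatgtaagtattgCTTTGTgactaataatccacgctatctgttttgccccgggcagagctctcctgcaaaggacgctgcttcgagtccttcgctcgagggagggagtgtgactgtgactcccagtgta
Windows of 250 bases before the start of 20807 autosomal protein-coding genes held the ETS letters in 19.98% and the E-box letters in 13.2%, so neither match is unusual. In 300 bases around the centre of 53113 distal peaks, the E-box letters occurred in 28.5% and the SOX letters in 47.2%. AP-1 letters (TGANTCA) were in neither window.

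Gdf5 lies on the minus strand at chr2:155941023-155945367 and had 4 peaks. The promoter peak at chr2:155944836-155946716 had a count in 33.2% of the gated nuclei and 15.4% of the others, and a peak over the coding exon at the end of the gene (chr2:155941559-155942769) in 21.1% and 11.4%. The annotated gene Gm15557 overlaps that second peak, so its counts cannot be given to Gdf5 alone.

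The 5 loci did not take part equally in the choice of nuclei. Prg4 had a count in 490 of 584 gated nuclei, 83.9% (interval 80.7 to 86.8), against 6.96% (6.49 to 7.45) of the others, and Gdf5 in 47.6% (43.5 to 51.7) against 27.5% (26.7 to 28.4). Wnt9a had a count in 64.6% of the gated and 63.5% of the other nuclei, Erg in 77.9% and 80.5%, and Creb5 in 98.5% and 98.1%. The shares thus lay far apart at Prg4 and Gdf5 and close together at the other 3. In CPM the gated nuclei stood at 83.7 against 4.15 at Prg4, a ratio of 20.2, and at 57.7 against 20.2 at Gdf5, a ratio of 2.86. The ratios were 1.43 at Wnt9a (106 against 74.2 CPM), 1.18 at Erg (184 against 155 CPM) and 1.05 at Creb5 (523 against 498 CPM). Prg4 supplied 64.4% of the gated nuclei's summed score, Gdf5 15.7%, Wnt9a 7.89%, Erg 6.55% and Creb5 5.54%, whereas in the other nuclei Prg4 supplied 9.95% and each of the other loci between 20.7% and 23.4%. These values chose the nuclei and are given as a description.

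**Figure D1:**
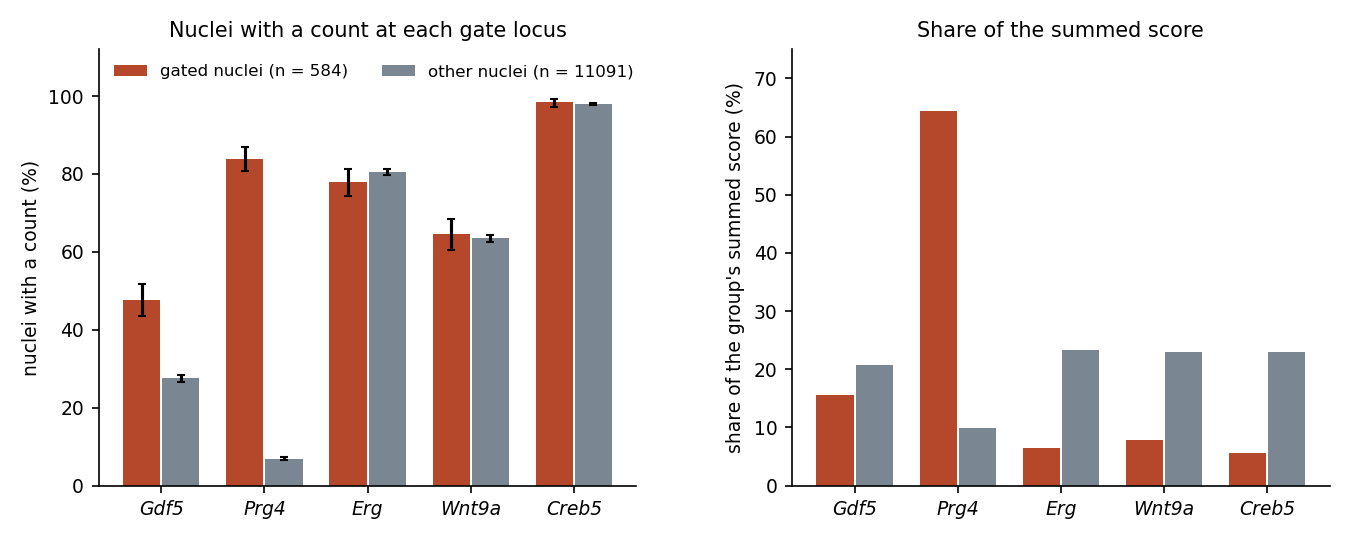
Left, the percent of nuclei with at least 1 count at each gate locus in the 584 gated and 11091 other nuclei, with 95% binomial intervals. Right, the percent that each locus supplied of the group's summed score. The bars for Prg4 (83.9% against 6.96% of nuclei, 64.4% against 9.95% of the score) set the gated nuclei apart, while Erg, Wnt9a and Creb5 had counts in similar shares of both groups.

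Most gated nuclei had exactly 1 Prg4 fragment. A fragment leaves 2 cut sites, and because Prg4 is rarely open, 1 fragment there was worth 8.0 units of score against 2.70 at Gdf5, 0.775 at Wnt9a, 0.374 at Erg and 0.117 at Creb5. In any nucleus with fewer than 21112 counts, 1 Prg4 fragment alone reached the threshold, and in deeper ones counts at other loci were needed beside it. Exactly 1 Prg4 fragment was found in 342 gated nuclei (58.6%), 2 in 119 and 3 or more in 29, and 94 had none. Of the 1060 nuclei with 1 Prg4 fragment, 342 (32.3%) were gated, and their median total was 22554.5 counts against 45171.5 for the 718 that were not. With 2 fragments 119 of 169 (70.4%) and with 3 or more 29 of 33 (87.9%) were gated. Membership among nuclei open at Prg4 thus went with low depth, and in sparse data a locus without a count may still have been open. The gated nuclei as a whole were shallower, with a median of 23777.5 counts against 31587, while the median share of counts in promoter peaks was alike at 40.3% and 40.5%.

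By the locus that gave most of the score, 473 gated nuclei (81.0%) were led by Prg4, 96 (16.4%) by Gdf5, 11 by Wnt9a, 4 by Erg and 0 by Creb5. Counts at Prg4 or Gdf5 were present in 579 and at both in 189 (32.4%), against 253 (2.28%) of the others with both. All 5 loci had a count in 120 gated nuclei (20.5%) and 196 others (1.77%), and the largest class of gated nuclei, 236 (40.4%), had a count at 4 loci. The gated nuclei scored 379 to 1692 units per 1000000 counts with a median of 496, against a median of 107 in the others. At the threshold, the last nucleus inside scored 378.901 with 25690 counts in all, 2 of them at Prg4 and 0 at Gdf5, and the first outside scored 378.742 with 47250 counts, 2 at Prg4 and 4 at Gdf5.

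Whether the loci go together was read by leaving each out of the score in turn, choosing the highest 5% on the other 4 and reading the locus left out. None of the 5 loci reached a log2 ratio of 0.32 in size, the fold used for genes below, with an interval clear of 1-fold. Prg4 came closest at 1.2499-fold (0.969 to 1.61), followed by Gdf5 at 1.11-fold (0.957 to 1.28) and Wnt9a at 1.04-fold (0.964 to 1.13). Creb5 stood at 0.981-fold (0.9502 to 1.01) and Erg at 0.901-fold (0.849 to 0.957), below the other nuclei. Peaks within 200 kb of the loci but outside the scored windows were 1.08-fold higher at Gdf5 (1.04 to 1.12), 1.08-fold at Erg (1.05 to 1.12), 1.07-fold at Prg4 (1.02 to 1.13), 1.01-fold at Wnt9a (0.981 to 1.05) and 0.947-fold at Creb5 (0.910 to 0.987), and 1.03-fold over all 5 (1.02 to 1.05). Prg4 left out was higher with an interval clear of 1-fold when nuclei were chosen within strata of depth and promoter share (1.36-fold, 1.096 to 1.68) and among those with 20000 or more counts (1.30-fold, 1.01 to 1.66), and was 0.995-fold when 10% were taken. Gdf5 left out was 1.18-fold (1.03 to 1.34) within strata of depth alone and 1.21-fold (1.06 to 1.37) within strata of depth and promoter share. It was 1.16-fold (1.05 to 1.27) when 10% were taken and 0.974-fold (0.767 to 1.22) with binary counts. It was 1.28-fold (1.105 to 1.47) with loci not divided by their means, 1.32-fold without Prg4 and 1.34-fold with loci divided by their SD, so neither locus had the same call under all settings. The Gdf5 flank was 1.03-fold (0.997 to 1.07) within strata of depth alone and 1.01-fold with 2% taken, and the Erg flank 1.02-fold (0.982 to 1.06) without cluster 5 of the clusters described below, 0.967-fold without Prg4 and 0.958-fold undivided. The Prg4 flank was 1.01-fold (0.926 to 1.1) when counts were made binary.

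**Figure D2:**
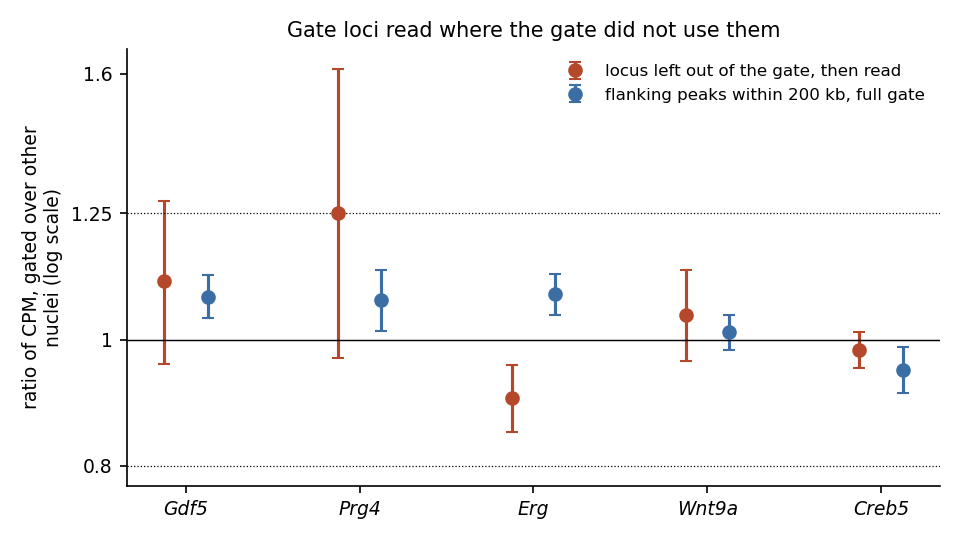
Ratio of CPM, gated over other nuclei (log scale), at each gate locus when it was left out of the gate (red) and at peaks within 200 kb outside the scored window under the full gate (blue), with 95% exact intervals for counting error. Dotted lines mark a log2 ratio of 0.32 in each direction. All points lie within them, with Prg4 at the upper line (1.2499-fold, interval 0.969 to 1.61) and Erg lowest (0.901).

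The joint loci outside the gate were close to level between the groups. The list of 24 held signals, antagonists, transcription factors and matrix genes of interzone, synovium and articular cartilage, and all 24 had a value. Their median log2 ratio of gated over other nuclei was 0.02, with median bounds of -0.13 and 0.12, against 0.01 over all 15040 genes tested. Here and below, median bounds are the medians of the single loci's lower and upper bounds and are not an interval for the median. The central 90% of the genes tested ran from -0.21 to 0.20, a range for single genes and not for the median of a list. Of the 24, 14 lay above 0, and 0 reached a log2 ratio of 0.32 in size in either direction, where 1.23% of all genes tested were higher and 1.20% lower. Under the alternative settings of the gate and the count, up to 2 joint loci reached it upward, with loci divided by their SD, where 2.14% of all genes were higher. In CPM the 24 loci summed to 2045 in the gated and 2019 in the other nuclei.

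Among the joint signals and their antagonists, Gdf6, a relative of Gdf5, stood at a log2 ratio of -0.20 (49.5 against 57.0 CPM), Wnt16 at -0.23 (14.8 against 17.3 CPM), Wnt4 at 0.04 and Pthlh, which encodes the PTHrP that holds back cartilage maturation, at -0.11. The BMP antagonists Nog and Chrd stood at 0.04 and -0.11, and the Wnt antagonist Sfrp2 at -0.10. Dkk3, which the study uses as a marker of perichondrium, stood at 0.17. These loci thus lay on both sides of 0, with Gdf6 lower by more than its interval (0.785-fold to 0.962-fold) and Dkk3 higher (1.04-fold to 1.22-fold). Gdf6 turned to 0.09 with loci not divided by their means and 0.08 without Prg4 in the gate, and was -0.09 with loci divided by their SD. The transcription factors were nearer to 0: Osr2 at 0.00, Trps1 at 0.05, Nfatc1 at 0.03, Cux1 at 0.02, Foxc1 at -0.08 and Barx1 at -0.07. Tgfbr2, the receptor needed for interzone cells to persist, stood at 0.06. Of the matrix and surface genes, Cilp, a cartilage intermediate layer protein, was the highest of the list at 0.29 (17.8 against 14.5 CPM, 1.03-fold to 1.45-fold), followed by the hyaluronan receptor Cd44 at 0.14 and the hyaluronan synthase Has2 at 0.14. Cilp turned to -0.74 with loci not divided by their means, -0.34 without Prg4 in the gate and -0.01 with loci divided by their SD. It stayed above 0 with the other nuclei weighted to the clusters of the gated ones (0.21). Under the first 3 of these settings, in this order, Cd44 stood at 0.08, -0.24 and -0.09 and Has2 at 0.45, 0.34 and 0.33. Col22a1 stood at 0.06, Cilp2 at 0.03, Clu at 0.02, and Abi3bp and the protease Htra1 at -0.06 each.

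**Figure D3:**
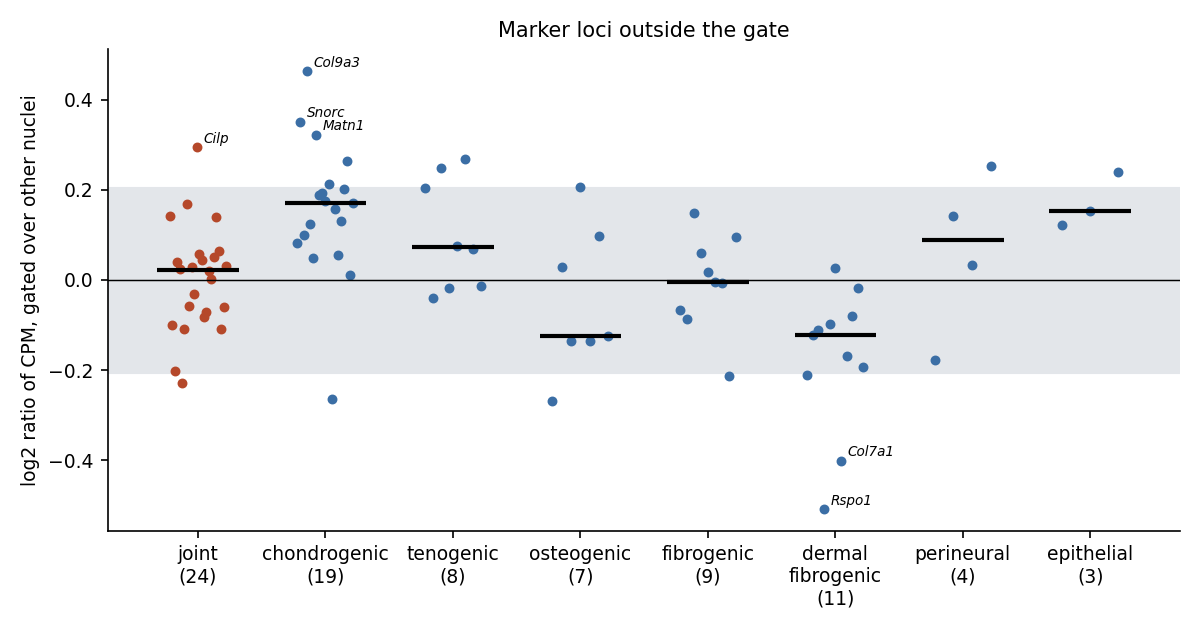
Log2 ratio of CPM, gated over other nuclei, for each locus (points) of 8 marker lists, with the number of loci with a value in brackets and bars at the medians. The shaded band holds the central 90% of the 15040 genes tested (-0.21 to 0.20). Joint loci centre on 0.02, chondrogenic loci on 0.17 and dermal fibrogenic loci on -0.12.

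Cartilage loci showed the largest shift of the lineage lists. Their median log2 ratio was 0.17 (median bounds -0.01 and 0.31), 18 of 19 lay above 0, and the sum was 1018 against 924 CPM. At or past the fold of 0.32 on the log2 scale were 3 of 19, all higher, against the 1.23% given above for all genes: Col9a3, a chain of collagen IX, at 0.46 (34.7 against 25.2 CPM), the proteoglycan gene Snorc at 0.35 (13.2 against 10.3 CPM) and the matrilin Matn1 at 0.32 (12.7 against 10.2 CPM). That count was 0 with promoter peaks only (0.759% of all genes were higher there) and with the other nuclei weighted to the clusters of the gated ones (0.338%), and 1 with binary counts (0.199%). It was 14 without Prg4 in the gate (2.43%), 16 with loci not divided (3.02%) and 16 with loci divided by their SD (2.14%). The chondrogenic factors Sox5, Sox6 and Sox9 stood at 0.19, 0.17 and 0.06, and the aggrecan gene Acan at 0.19. Chad, which encodes chondroadherin, stood at 0.16, and Col2a1, the main collagen of cartilage, was level at 0.01 (99.997 against 99.2 CPM). Epyc, a small proteoglycan of growth plate cartilage, was the exception at -0.26.

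The tenogenic list of 8 had a median of 0.07 and 0 loci past the fold, where 1.23% of all genes were higher and 1.20% lower. Up to 2 passed it upward under the alternative settings, as without Prg4 in the gate, where 2.43% of all genes were higher. Scx, the early tendon factor, was highest at 0.27 (15.95 against 13.3 CPM) and Htra3 lowest at -0.04. Kera and Thbs4, tendon matrix genes, stood at 0.25 and -0.02, and Tnmd, the late tendon marker, at -0.01. Osteogenic loci had a median of -0.12 over 7 with a value, with Dlx5 highest at 0.21, and 0 past the fold. At the shares over all genes, 0 in lists as short as these says little about them. Under the main settings the cartilage and tendon medians thus lay above 0 and the bone median below. Median bounds were -0.10 and 0.28 for tendon and -0.22 and 0.03 for bone, so they took in 0, as did those for cartilage. Kera turned to -0.25 with loci not divided by their means, -0.16 without Prg4 in the gate and -0.24 with loci divided by their SD. Scx stayed above 0 under the same settings.

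Dermal fibrogenic loci were lower, with a median of -0.12 and 10 of 11 below 0, and Rspo1, a Wnt agonist, at -0.51 (17.3 against 24.6 CPM) and Col7a1, the anchoring fibril collagen, at -0.40 (11.9 against 15.7 CPM) at or past the fold, where 1.20% of all genes were lower. The median was -0.06 (median bounds -0.17 and 0.10) with the other nuclei weighted to the clusters of the gated ones. The median bounds, which describe single loci, also took in 0 at 20000 or more counts, with binary counts and at promoter peaks only, among others. The highest of that list was Crabp1 at 0.03, and the limb and skin factor Irx1 stood at -0.08. The fibrogenic list was level (median -0.00 over 9, Fap highest at 0.15 and Clec3b lowest at -0.21), with Cd34 at -0.09 and Postn at 0.06, and the general MP list too (-0.00 over 9). The MP median rose to 0.14 with binary counts (median bounds -0.08 and 0.35) and 0.11 without Prg4 in the gate (0.01 and 0.22). Pericyte loci had a median of -0.07 with Abcc9, a potassium channel subunit of pericytes, at -0.33 and Pdgfrb at -0.29 the lowest and Kcnj8 and Mcam the highest, at 0.07 each. Of other cell types, both those the surface markers gated out and those they did not, epithelial loci had a median of 0.15 over 3, perineural 0.09 over 4, Schwann 0.12 over 1, myogenic -0.04 over 2, endothelial -0.06 over 7 and blood -0.12 over 3. The epithelial median turned to -0.34 without Prg4 in the gate, -0.36 with loci not divided and -0.19 with loci divided by their SD, and was 0.02 without cluster 5. The perineural median turned to -0.04, -0.06, -0.08 and -0.04 under the same settings, and the fibrogenic median was 0.20 with loci not divided. The blood median turned to 0.24 with 2% of nuclei taken, 0.05 with binary counts, 0.03 with loci not divided and 0.04 weighted by cluster. It stayed below 0 under the other settings. The myogenic median was -0.26 with loci divided by their SD. Epithelial genes summed to 78.2 CPM over Krt14, Trp63 and Epcam in the gated nuclei and 69.8 CPM in the others, and each of the 3 was higher (0.12, 0.15 and 0.24). The perineural markers Cldn1 and Wnt6 stood at 0.25 and -0.18. The lowest endothelial gene was Cdh5 at -0.51 on few counts (10.2 CPM in the gated nuclei). Fli1, Pecam1 and Kdr, at 0.05, 0.04 and 0.03, were the only 3 of the 7 endothelial loci above 0. The leukocyte gene Ptprc was at -0.38 (6.94 CPM), with an interval from 0.577-fold to 1.01-fold that took in 1, and Spi1 at 0.14. The part of these other cell types in the values above was not tested.

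The signalling pathways that build joints had medians near 0. Of 25 BMP and GDF pathway loci, 0 were past the fold in either direction, where 1.23% of all genes were higher and 1.20% lower, so that 0 in a list of this length says little about it, with a median of -0.01 and a range from -0.20 at Gdf6 to 0.15 at Bmpr1b, the receptor through which Gdf5 signals. Of 24 Wnt pathway loci 0 were past the fold (median -0.02), from Wnt16 at -0.23 to the receptor Fzd1 at 0.23. Of 9 PTHrP and hedgehog loci 0 were past it (median -0.05), from the target Gli1 at -0.13 to Gli3 at 0.05. Genes that mark position along the limb had a median of -0.09 over 15, with Hoxa13, the autopod gene, lowest at -0.33 and Hoxa11, the zeugopod gene, highest at 0.07.

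Across 15040 autosomal protein-coding genes more than 200 kb from the gate loci, 185 (1.23%) were higher by the fold (a log2 ratio of 0.32 or more) in the gated nuclei and 181 (1.20%) lower. Called genes had few counts, with medians of 258 and 196 in the gated nuclei against 580 over all genes tested. Among the 7520 genes at or above the median count, the 15 highest were Gpd2, Adgrg1, Sgk3, Crybg1, Kif21a, Armc4, Tor3a, Nsmce2, Zdhhc18, Cav1, Cdh1, Grhl1, Jakmip2, Pkp1 and Manba, with log2 ratios from 0.42 down to 0.31. Cdh1 encodes E-cadherin, Pkp1 the desmosomal plakophilin and Grhl1 a grainyhead factor, all known from epithelia. Several turned under other settings of the gate. With loci not divided by their means and without Prg4, Cdh1 stood at -0.70 and -0.63, Pkp1 at -0.57 and -0.70 and Adgrg1 at -0.12 and -0.06. Gpd2, Sgk3, Kif21a, Armc4, Nsmce2, Cav1, Jakmip2 and Manba stayed above 0 under both. Gpd2, the mitochondrial glycerol-3-phosphate dehydrogenase, led at 48.4 against 36.1 CPM (1.21-fold to 1.49-fold), followed by the adhesion receptor Adgrg1 at 55.1 against 41.2 CPM (1.21-fold to 1.47-fold). The 10 lowest had log2 ratios from -0.54 to -0.40 and included Cntn4, Slc7a10, Adamts20, Fgf10, Dpp6, C1qtnf7, Fam174b, Cdh20 and Vax2. Cntn4, a neural adhesion molecule, stood at 45.8 against 66.7 CPM, and Fgf10, the mesenchymal ligand of limb and skin outgrowth, at 54.5 against 74.6 CPM. With loci not divided, Fgf10 turned to 0.05 and C1qtnf7 and Cdh20 to 0.03 each, while the others named stayed below 0. Without Prg4 in the gate all of those named stayed below 0.

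To ask which kinds of nuclei the gate had collected, all 11675 were clustered into 7 groups without the regions within 200 kb of the gate and marker loci. Gated nuclei were found in every cluster, from 2.01% of cluster 3 (34 of 1695, interval 1.39 to 2.79) to 8.0% of cluster 5 (74 of 925, 6.33 to 9.94), around the 5% that the rule takes of all nuclei. Cluster 7 held 7.89% (57 of 722), cluster 4 6.84% (80 of 1169), cluster 6 6.19% (54 of 873), cluster 1 4.89% (165 of 3377) and cluster 2 4.12% (120 of 2914). Of the gated nuclei, 28.3% lay in cluster 1 and 20.5% in cluster 2, the clusters with most nuclei. Intervals of clusters 4, 5, 6 and 7 overlapped one another, while that of cluster 3 lay below all others.

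Cluster 5 was highest at every epithelial marker, with Krt5 at 45.9 CPM (1.66 to 4.14 in the other clusters), Krt14 at 52.3 CPM (2.17 to 4.09) and a sum over 4 loci of 304 CPM (36.2 to 69.3 elsewhere). It was also highest at the sum of the 4 perineural loci (340 against 137 to 187 CPM) and led by Dmkn, Dsg3 and Krtdap, all skin genes. In this cluster the Prg4 locus was at its highest, 14.2 CPM (12.3 to 16.3), and the Gdf5 locus at 12.4 CPM was level with the lowest. Cluster 7 was highest at 18 of 19 chondrogenic loci, with a sum of 3256 CPM (710 to 1181 elsewhere), Col2a1 at 553 CPM and the Erg locus at 359 CPM, and its Prg4 locus stood at 6.47 CPM (4.97 to 8.41). Cluster 6 led at the tenogenic sum (446 against 155 to 319 CPM) with Prg4 at 10.9 CPM. Cluster 4 had 21 of 24 joint loci above the library level, the highest Wnt9a (96.0 CPM) and, with cluster 7, the highest Gdf5 (28.8 and 29.0 CPM), and its Prg4 locus stood at 7.17 CPM. It was also above the library level at 18 of 19 chondrogenic, 19 of 25 BMP and GDF pathway and 19 of 24 Wnt pathway loci, but at 1 of 10 fibrogenic loci. The joint sum was higher in cluster 6 (2328 against 2312 CPM in cluster 4). Cluster 3, poorest in gated nuclei, was highest at dermal (1141 CPM) and osteogenic (936 CPM) loci and lowest at Prg4 (3.95 CPM). The gate loci therefore did not all peak together. Prg4 was highest in clusters 5 and 6, Gdf5 in clusters 4 and 7, Wnt9a in cluster 4, Erg in cluster 7 and Creb5 in cluster 2 (637 CPM). Gdf5 thus shared cluster 4 with Wnt9a and cluster 7 with Erg, and Prg4 and Creb5 peaked elsewhere.

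**Figure D4:**
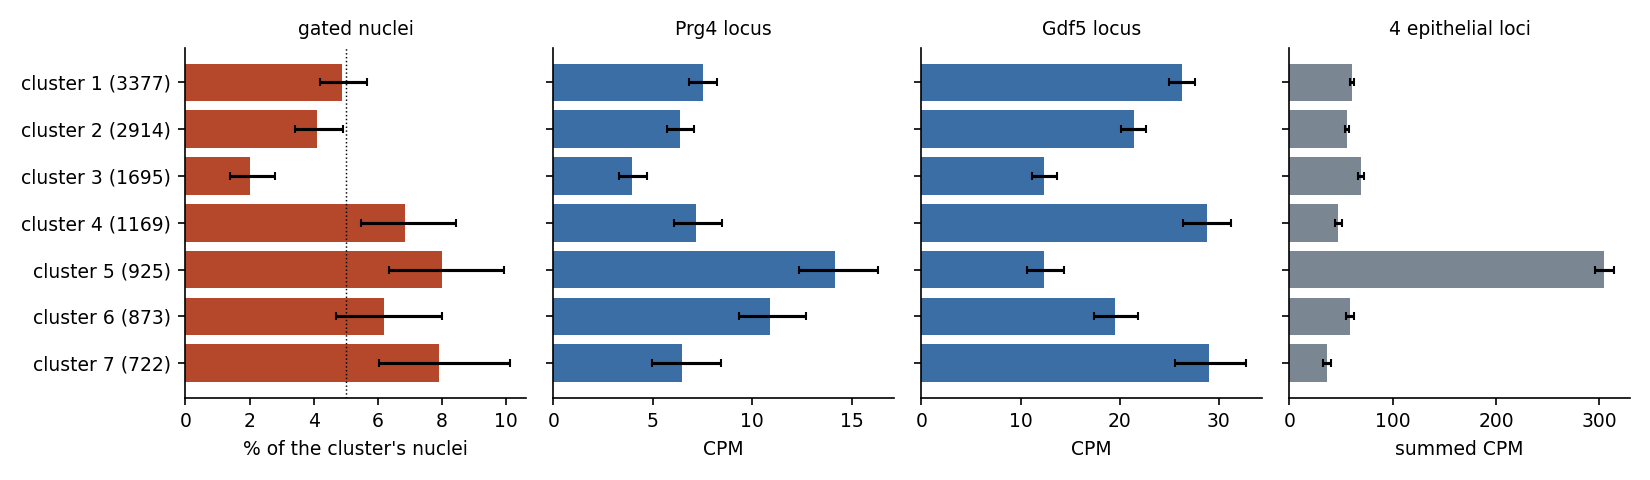
Percent of each cluster's nuclei that were gated, CPM at the Prg4 and Gdf5 loci, and CPM summed over 4 epithelial loci, in 7 clusters (number of nuclei in brackets), with 95% intervals for counting error. The dotted line marks the 5% taken of all nuclei. Cluster 5, at 304 CPM over the epithelial loci, had the highest share of gated nuclei (8.0%) and the highest Prg4 (14.2 CPM) but not Gdf5.

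The genes named above can be placed in these clusters. Of the 15 highest genes 10 had their highest CPM in cluster 5, as did 23.7% of the 7520 genes they were taken from, among them Cdh1 at 230 CPM (20.1 to 50.5 in the other clusters) and Pkp1 at 212 CPM (17.3 to 33.8), and 9 of the 10 lowest had theirs in cluster 3, as did 11.98% of the 7520. With the nuclei of cluster 5 left out, an alternative chosen after seeing the data, 107 genes were higher and 171 lower, and with the other nuclei weighted to the clusters of the gated ones 51 and 113. With that weighting the chondrogenic median was 0.02, against 0.17 without it.

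Nuclei led by Prg4 and by Gdf5 were spread over the clusters in different proportions. Of the 473 led by Prg4, 29.8% lay in cluster 1 and 19.5% in cluster 2, and of the 96 led by Gdf5 24.0% and 26.0%. Of those led by Prg4, 15.2% lay in cluster 5, 10.8% in cluster 6, 11.2% in cluster 4 and 6.98% in cluster 7. Of those led by Gdf5, 24.0% lay in cluster 4, 19.8% in cluster 7, 2.08% in cluster 5 and 1.04% in cluster 6. The group led by Gdf5 was shallower (median 15967.5 against 24831 counts), and only 13 of 24 joint loci passed the count minimum in it. Its joint median was 0.12 over those 13 and its chondrogenic median 0.36 over 5, against 0.06 over the 4852 genes tested in that group, and 3 joint loci were past the fold upward and 1 downward, as were 3 of the 5 chondrogenic loci upward, where 9.58% of those genes were higher and 3.83% lower. In the group led by Prg4 the joint median was -0.01 over 24 and the chondrogenic median 0.12 over 19, against -0.01 over 14804 genes, with 1 joint and 0 chondrogenic loci past the fold, where 1.59% of those genes were higher and 1.38% lower. Epithelial loci stood at 0.26 over 2 in the group led by Prg4.

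Each locus was also used alone, with the 584 nuclei highest at it per count. Nuclei highest at Prg4 were 1.06-fold at the Gdf5 locus (0.918 to 1.23), 1.02-fold at the chondrogenic loci, 0.995-fold at the joint loci and 1.38-fold at the epithelial loci (1.29 to 1.48). Nuclei highest at Gdf5 were 1.03-fold at Prg4 (0.766 to 1.35), 1.17-fold at chondrogenic loci (1.14 to 1.19) and 0.791-fold at epithelial loci. At the remaining gate loci they were 1.13-fold at Wnt9a (1.04 to 1.23), 1.04-fold at Erg (0.984 to 1.11) and 1.05-fold at Creb5 (1.01 to 1.08). Those highest at Erg were 2.24-fold at chondrogenic loci (2.199 to 2.27), 1.246-fold at the Gdf5 locus (1.08 to 1.44) and 0.736-fold at fibrogenic loci. Those highest at Wnt9a were 1.28-fold at Gdf5 (1.1 to 1.48) and 1.02-fold at chondrogenic loci, and those highest at Creb5 1.29-fold at fibrogenic loci (1.252 to 1.32) and 0.897-fold at chondrogenic loci. Joint loci outside the gate stood between 0.995-fold and 1.03-fold. Nuclei chosen at Gdf5 and at Erg thus shared a surplus at chondrogenic loci, of unequal size, those chosen at Erg and at Wnt9a one at the Gdf5 locus, and the joint loci were near level in all 5 choices.

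**Figure D5:**
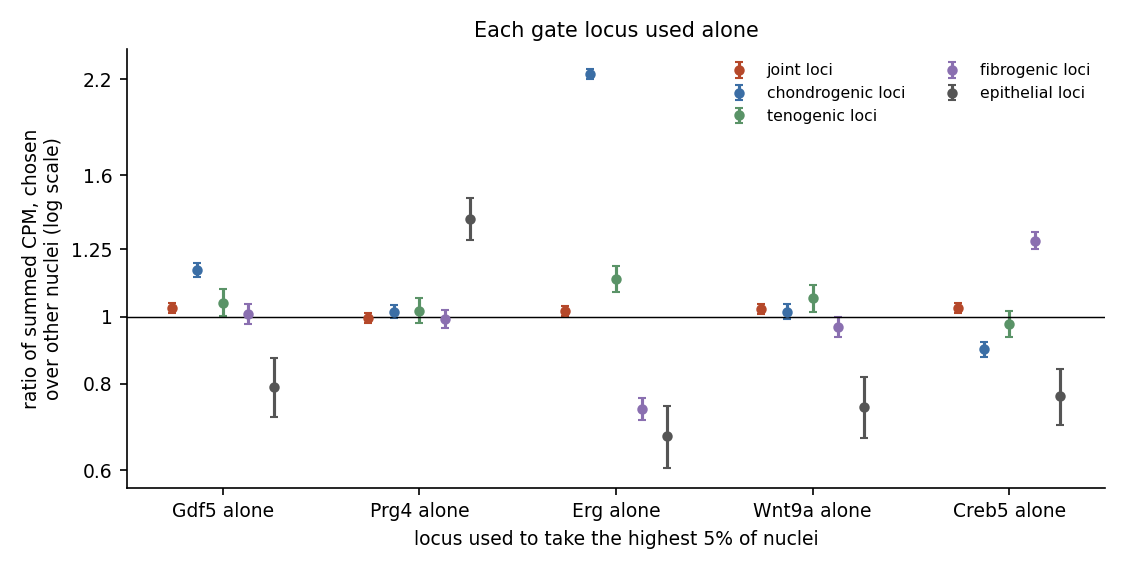
Ratio of summed CPM, chosen over other nuclei (log scale), at 5 marker lists when each gate locus alone chose the highest 5% of nuclei, with 95% exact intervals for counting error. Erg alone gave 2.24-fold at chondrogenic loci, Prg4 alone 1.38-fold at epithelial loci and Creb5 alone 1.29-fold at fibrogenic loci, while joint loci stayed between 0.995 and 1.03.

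Below the gate the joint and chondrogenic sums fell from band to band with the score, but the gated band was not the highest in either. From the highest 5% through 5 to 10%, 10 to 25%, 25 to 50% and the lowest 50% of nuclei, the joint loci summed to 2045, 2083, 2066, 2024 and 1994 CPM. The chondrogenic loci summed to 1018, 1068, 1024, 945 and 861 CPM over the same bands, so the nuclei just below the gate stood above it in both. Median totals were 23777.5, 33451, 33307, 34641 and 29096 counts. Epithelial loci were highest in the highest and the lowest band (83.7 and 83.8 CPM, against 65.7 to 74.7 between them).

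Gates of the same size and form were built on loci that the study names for other lineages. The chondrogenic gate (Acan, Col2a1, Chad) shared 42 nuclei with the 584, 7.19% of each list (5.23 to 9.60), the tenogenic gate (Tnmd, Thbs4, Kera) 40 or 6.85% (4.94 to 9.21), the fibrogenic gate (Ly6a, Postn, Cd34) 32 or 5.48% (3.78 to 7.65) and the dermal fibrogenic gate (Col7a1, Rspo1, Irx1) 16 or 2.74% (1.57 to 4.41). The dermal share had an interval wholly below the 5% taken of all nuclei, and the chondrogenic one an interval wholly above it. The chondrogenic interval took in 5% when nuclei were chosen within strata of depth alone (6.03%, 4.24 to 8.29), within strata of depth and promoter share (5.33%, 3.65 to 7.48), among nuclei with 20000 or more counts (6.31%, 4.23 to 8.99) and without cluster 5 (6.88%, 4.89 to 9.36). The tenogenic interval lay wholly above 5% among nuclei with 20000 or more counts (7.43%, 5.17 to 10.3), without the deepest 5% of nuclei (7.21%, from 5.199) and without cluster 5 (7.25%, from 5.205). In the chondrogenic gate the Erg locus was 1.98-fold higher and Gdf5 1.22-fold, and Erg was 1.38-fold higher in the dermal gate. Prg4 was 1.44-fold higher (1.14 to 1.81) in the tenogenic gate, 1.30-fold (1.04 to 1.61) in the fibrogenic gate, 0.905-fold (0.662 to 1.21) in the chondrogenic gate and 0.602-fold in the dermal gate.

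Distal peaks, those that are not promoter peaks and lie more than 200 kb from the gate loci, were compared among 53113 with at least 50 counts in the gated nuclei. At 1.5-fold or more, 4025 (7.58%) were higher and 1385 (2.61%) lower. The minimum on the gated nuclei's counts favours the higher side, and when 50 counts were also expected from the other nuclei, 1249 were higher and 1385 lower of 46211. Most of the 4025 thus passed only through the gated nuclei. AP-1 letters (TGANTCA, a palindrome, in 300 bp around the centre) were in 25.6% of these 1249 higher peaks (23.2 to 28.1), 15.2% of the 46211 and 13.7% of the lower ones, and in 29.9% of the 4025 (28.5 to 31.3) and 16.5% of the 53113. With the minimum on both sides, E-box letters (CATCTG) were in 40.9% of the lower peaks (38.3 to 43.5), 28.8% of all and 26.1% of the higher ones. With the others also weighted by cluster they were in 29.6% of the lower (24.2 to 35.3) against 28.5% of all. Without that weighting, and still with the minimum on both sides, SOX letters (ACAANG) were in 45.6% of higher peaks and 47.3% of all. RUNX letters (TGTGGT) were in 22.6% and 20.4%, ETS letters (GGAAGT) in 18.98% and 18.6%. TEAD letters (GGAATG) were in 23.1% of higher peaks (20.8 to 25.6) and 20.1% of all, an interval above the share of all. These shares lay closer together than those of AP-1, and the CRE (TGACGTCA) and NFI motifs were in under 1% of each. With the minimum on both sides, the AP-1 share of higher peaks was 17.9% (15.5 to 20.3) against 14.5% of all without cluster 5 and 14.7% (13.1 to 16.3) against 14.1% when the gate left out Prg4, where the lower peaks held more (17.7%, 15.96 to 19.5). It was 28.2% (23.8 to 33.1) against 15.6% with the others weighted by cluster. The part of cluster 5 and of Prg4 in that share was not tested.

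The 6 distal peaks with the largest ratios were at 3.34 to 5.55 CPM in the gated nuclei against 0.696 to 1.53 CPM in the others, 3.59-fold to 4.80-fold on 53 to 88 counts. The nearest gene starts were those of Ccnq (4206 bp away, the highest at 4.80-fold), Elovl4, Tmem19 (2916 bp), Gnaz (322982 bp, with the peak itself inside Pcdh15), Pitx1 and Rad51b (inside the gene). All 6 passed the minimum through the gated nuclei alone, since fewer than 50 counts were expected from the others, so their high ratios are a description. The 3 of them that hold AP-1 letters are printed to show where the letters lie, with AP-1, SOX, ETS, RUNX and E-box matches in capitals. They are 300 bases of the plus strand in GRCm38.p6 at chr10:115365268-115365567, chr10:74644046-74644345 and chr12:79552030-79552329. The first is intergenic, the second lies in Pcdh15 and the third in Rad51b.
peak near Tmem19: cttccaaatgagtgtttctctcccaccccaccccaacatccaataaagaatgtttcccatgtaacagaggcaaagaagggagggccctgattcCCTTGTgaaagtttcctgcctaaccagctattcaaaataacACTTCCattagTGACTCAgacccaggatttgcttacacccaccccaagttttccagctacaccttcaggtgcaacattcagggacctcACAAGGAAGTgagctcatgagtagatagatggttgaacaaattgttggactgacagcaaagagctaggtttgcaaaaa
peak near Gnaz: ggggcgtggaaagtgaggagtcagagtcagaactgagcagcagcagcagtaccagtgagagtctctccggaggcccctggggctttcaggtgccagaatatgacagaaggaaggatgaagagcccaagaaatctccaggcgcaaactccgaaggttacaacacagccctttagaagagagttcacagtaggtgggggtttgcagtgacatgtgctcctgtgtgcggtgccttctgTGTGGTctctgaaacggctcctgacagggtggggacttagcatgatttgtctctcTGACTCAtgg
peak near Rad51b: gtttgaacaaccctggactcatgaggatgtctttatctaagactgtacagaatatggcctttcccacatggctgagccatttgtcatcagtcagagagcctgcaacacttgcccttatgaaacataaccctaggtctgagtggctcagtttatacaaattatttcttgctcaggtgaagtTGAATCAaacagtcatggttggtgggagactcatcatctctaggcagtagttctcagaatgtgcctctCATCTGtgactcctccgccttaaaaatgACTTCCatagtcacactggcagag
In the peak near Tmem19 the AP-1 letters stand at bases 146 to 152, counted from the 5′ end, and the SOX and ETS matches at bases 223 to 232 overlap. In those near Gnaz and Rad51b the AP-1 letters stand at bases 291 to 297 and 181 to 187.

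The same rule was applied in the earlier libraries, each against its own other nuclei. It took 420 of 8397 nuclei at E14.5 and 133 of 2664 at E12.5. There, too, Prg4 supplied most of the score, 71.6% and 66.7%, although it had a count in only 2.70% and 2.33% of the nuclei that passed depth, against 10.8% at E16.5. At E14.5 no nucleus outside the gate had a Prg4 count. Left out of the gate, Gdf5 stood at 1.15-fold (0.965 to 1.37) at E14.5 and 1.72-fold (1.34 to 2.21) at E12.5, the highest value of a locus left out in any library. Prg4 stood at 1.52-fold (0.794 to 2.67) and 0.584-fold (0.0924 to 2.93), Erg at 1.03-fold (0.933 to 1.13) and 1.18-fold (1.06 to 1.33), Wnt9a at 0.966-fold and 0.858-fold and Creb5 at 0.997-fold and 0.955-fold. Joint medians were 0.03 over 23 and 0.03 over 20 loci, and chondrogenic medians 0.16 over 16 and 0.07 over 11. Col9a3 was at 0.40 at E14.5 and Matn4 at 0.52 at E12.5, the highest of the cartilage loci there. Stage cannot be told apart from library, nor E16.5 from the elbow segment.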

How the data were processed

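The deposited files hold counts (for each nucleus and each called peak, how many cut sites of the transposase fell in it), which the authors had made with Cell Ranger ATAC on mm10 and had not normalised. The labels name version 1.1.0 of that pipeline and the file headers 1.2.0 for the E16.5 library and 1.0.1 for both earlier ones. Each library has its own set of called peaks. The number of nuclei that the study states differs from the barcodes deposited, and the filter behind it is not given in the sources used here. Nuclei with at least 10000 counts were used, with GENCODE vM21 basic genes on GRCm38. No doublet caller was run, and leaving out the deepest 5% of nuclei was an alternative.

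The gated nuclei and the marker lists were chosen with earlier results of these data known. CPM is counts per 1000000 counts of the same nuclei. Ratios carry exact conditional intervals, levels exact Poisson intervals and shares exact (Clopper-Pearson) intervals, all at 95%, with counts divided by 2 and rounded up as fragment equivalents. They cover counting error only. A gene summed the peaks over its body and the 2 kb upstream, and genes needed at least 100 counts in the gated nuclei and 100 expected from the others. Genes within 200 kb of a gate locus were left out, and calls were at a log2 ratio of 0.32 in size for genes and 1.5-fold for distal peaks, with no pseudocount. A promoter peak overlapped 1000 bp upstream to 100 bp downstream of a start site. All genes of the joint list were named, and of each other list the highest, the lowest and those the study names. Beyond the lists the rule took the 15 highest and 10 lowest genes at or above the median count, and the 6 highest distal peaks. Further genes of the chondrogenic, osteogenic, pericyte, perineural, tenogenic and BMP lists were named after their values were seen. Of some lists only the median is given. Of the genes and sequences this rule takes, 3 genes and 1 sequence are not reported here.

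Clusters came from k-means (7 clusters, 10 starts) on latent semantic indexing with 30 components, of which those with a correlation over 0.5 in size with log depth were dropped, leaving 29. Python 3.11.15, SciPy 1.17.1 and scikit-learn 1.9.0 were used, and the ratio code was tested on simulated data. Sequences were read from the RefSeq genome of GRCm38.p6. With 1 library per stage no test, p-value or standard error was computed.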

Additional observations from a re-analysis of the deposited data

How the results depend on the processing

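Among the main results, 69 values moved beyond their interval under an alternative (for counts, by over 1.5 times, and for list medians, beyond the median bounds) and 191 stayed within it. Median bounds are wide for a list's median, so staying within them says little. The joint medians at E16.5 were among the latter under every alternative run, from -0.04 (others weighted by cluster, and -0.03 with promoter peaks only) to 0.07. The alternatives without Prg4, with division by the SD, without cluster 5 and weighted by cluster, and those on the peaks, were chosen after seeing the data.

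The chondrogenic median was 0.66 without Prg4 in the gate, 0.61 with loci divided by their SD and 0.62 with loci not divided. Under these settings, in this order, 361, 319 and 450 genes were higher and 377, 297 and 554 lower, the cluster highest at chondrogenic loci held 19.7%, 19.2% and 20.4% of the gated nuclei, that highest at epithelial loci 1.71%, 4.79% and 0.171%, that highest at tenogenic loci 5.14%, 6.51% and 1.88%, and the chondrogenic gate 11.8%, 11.99% and 13.01%. The tenogenic gate held 4.45% undivided. Left out of the gate, without Prg4 and with the SD, Gdf5 was 1.32 and 1.34, Erg 1.03 and 0.976 and Creb5 1.04 and 1.02, and Prg4 was 0.841 undivided.

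Taking 2% of nuclei gave 297 genes higher and 300 lower, flanks at 1.01, and 2.14% and 2.56% in the chondrogenic and tenogenic gates, also of 2%. Taking 10% gave 13.1% and 12.2% there. Higher genes numbered 109 within strata of depth and promoter share, 27 binarised, 753 with no count minimum, 104 at promoters, 16 at 1.5-fold, 107 without cluster 5 and 51 weighted by cluster. Lower genes numbered 115 within strata of depth alone, 55 binarised, 606 with no count minimum, 10 at 1.5-fold and 113 weighted by cluster.

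At 2-fold, 548 of 53113 distal peaks were higher and 95 lower, and at 1.5-fold weighted by cluster 1604 and 274 of 53113. With the added count minimum 1249 were higher and 1385 lower of 46211, and weighted by cluster 379 and 274 of 47559. Unless the added minimum is named, peak counts and shares here used the minimum on the gated nuclei's counts alone, which favours the higher side. AP-1 letters were in 42.0% of higher peaks at 2-fold, 35.4% in 400 bp, 25.6% with the added minimum and 27.7% within strata. They were in 15.1% without Prg4 and 19.7% without cluster 5. In all peaks they were in 16.5%, 20.6%, 15.2%, 16.4%, 14.3% and 14.96% under these settings, in the same order. With the added minimum too, they were in 14.7% of higher peaks without Prg4, 17.9% without cluster 5 and 28.2% weighted by cluster. There they were in 14.1%, 14.5% and 15.6% of all peaks. E-box letters were in 49.9% of lower peaks in 400 bp, 35.2% without Prg4 and 29.6% weighted by cluster, the last 2 with or without the added minimum. In all peaks, without the added minimum, these letters were in 35.8%, 28.1% and 28.5%, in the same order. Without cluster 5 that cluster held 0% by construction, and with 10 clusters the one highest at epithelial loci held 5.65% (33 gated nuclei), beside a second cluster high at these loci with 43.

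No paired analysis was possible because each stage is 1 library. Depth limits what Prg4 shows, since 342 gated nuclei had 1 fragment there. The cause of these shifts was not tested.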
